A study of Mus musculus with 30 samples.

Results

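The 35 genes described here encode transcription factors known for endothelial, mesenchymal or macrophage identity. They were taken by symbol from a list of such factors, and all 35 were found among the 14118 genes of the count matrix. From textbook knowledge, 10 are endothelial factors, 13 mesenchymal, 11 macrophage, and Etv1 belongs to none of these lists. RNA was sequenced in bulk from 6 stromal populations sorted by flow cytometry from each of 5 mammary adenocarcinomas, which gave 30 libraries. All tumours arose in separate mice of the strain FVB/N-Tg(MMTVPyVT)634Mul/J, in which the MMTV promoter drives the polyoma middle T antigen in mammary epithelium, and all had a volume of 750 mm3. The series has no tumour-free tissue, so every population carries the same transgene background and tumour stage. Cancer-associated fibroblasts were CD45- CD31- CD90+ and were divided into CAF1 (CD34-) and CAF2 (CD34+). Endothelial cells were CD45- CD31+. Tumour-associated macrophages were CD45+ F4/80+ and are called CD206hi (CD206+ MHCII_low), CD206neg (CD206- MHCII_low) and CD206pos (CD206+ MHCII_high) here. The tumours carry the numbers 5, 6, 8, 10 and 11.

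Lineage transcription factors bind DNA in combinations and keep the genes of a cell type switched on. In endothelial cells, ETS factors such as Erg and Fli1 act with SOX factors of the F group (Sox7, Sox17, Sox18). Fibroblasts and other mesenchymal cells use the Twist and Prrx families, and macrophages depend on PU.1 (encoded by Spi1) with C/EBP, IRF and RUNX partners.

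Levels below are CPM, read counts set relative to the library total after TMM scaling, given as mean ± SD over n = 5 tumours unless stated otherwise. Library totals ran from 6292411 to 11957076 counts, and a count of 0 allows up to 3 counts (95% limit), which equal 0.168 to 0.726 CPM depending on the library. That limit covers counting error only. A difference is called where the Benjamini-Hochberg adjusted p was under 0.05 over all genes tested by edgeR (quasi-likelihood F test). Sort and cell type markers followed the gates with some exceptions. The summed level of 6 endothelial markers was 1478 CPM in the endothelial library of tumour 8 and 3528 to 3951 CPM in the other 4. That library also held the highest sums of fibroblast markers (630.3 CPM) and pericyte markers (1030.5 CPM) among endothelial libraries. Endothelial tumour 5 came next, at 533 and 555 CPM, and tumours 6, 10 and 11 held at most 208 and 198 CPM. Luminal epithelial markers summed to 133 to 1780.2 CPM in endothelial libraries, highest in tumour 6, and myoepithelial markers to 43.4 to 955 CPM, highest in tumour 5. The MHC class II gene H2-Aa stood at 14384 and 2897 CPM in CD206neg of tumours 6 and 8 and at 17.8 to 551 CPM in the other 3 CD206neg libraries. The columns that hold these 2 libraries are named for high MHC class II, whereas GEO's labels place them in the MHCII_low group, where they were kept. Calls between macrophage subsets that are lost without them are named below. In bulk RNA, fewer cells of a type and less RNA per cell cannot be told apart. Strand use in the counting is not given in the sources used here, so reads of a gene and of an antisense partner cannot be told apart either.

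Of the 34 factors listed for a lineage, 27 had their highest mean in that lineage. In 19 of these the libraries of that lineage did not overlap those of the other lineages. The share of all genes without such overlap was not computed, so these counts describe the members only. The lists were also chosen with earlier results of these data known. The count was 9 of 10 for endothelial, 9 of 13 for mesenchymal and 9 of 11 for macrophage factors. Lyl1 was highest in macrophages, Meox1, Meox2, Foxc2 and Foxf1 in endothelial cells, and Runx1 and Nr1h3 in fibroblasts. The count was again 27 when CPM were scaled by library totals alone.

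**Figure D1:**
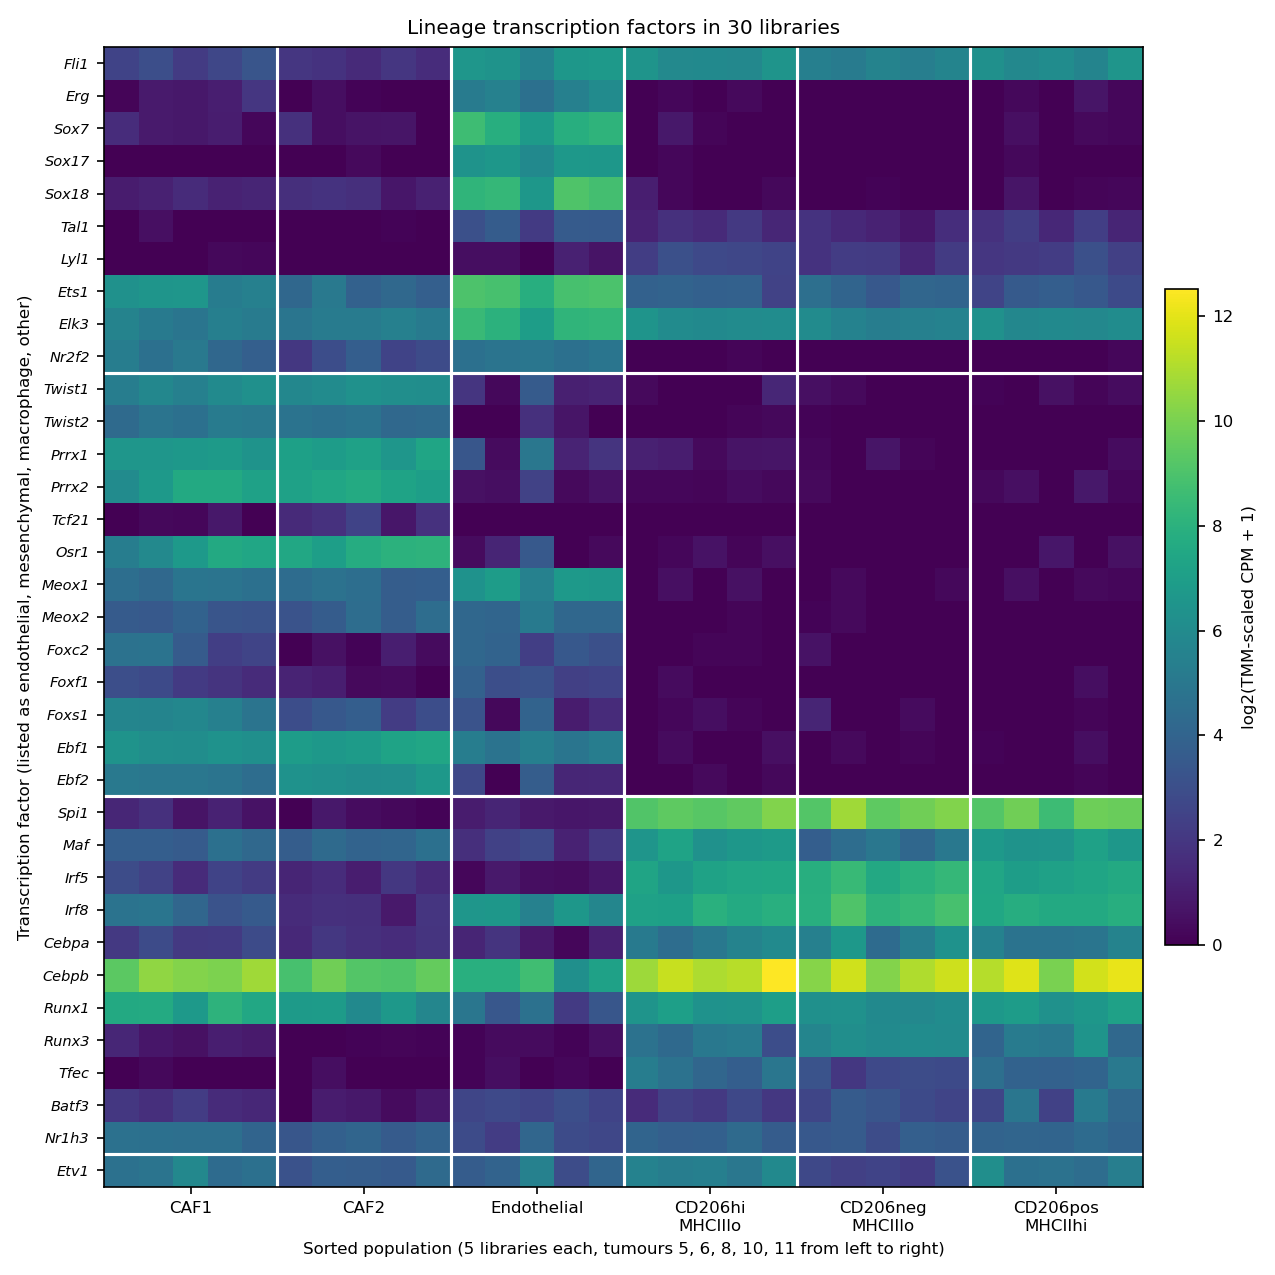
Log2 of TMM-scaled CPM plus 1 for the 35 transcription factors (rows, by list) in the 30 libraries (columns, by population and tumour). The blocks of high values follow the lists for 27 of 34 factors, with Fli1 and Elk3 also present in macrophages and Meox1, Meox2, Foxc2 and Foxf1 in endothelial cells.

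The SOX F factors and Erg, which drive endothelial and vascular gene programmes, had the sharpest endothelial patterns. Sox18 stood at 289, 325, 98.1, 541 and 438 CPM in endothelial tumours 5, 6, 8, 10 and 11, and at no more than 2.55 CPM in any fibroblast library. Sox7 stood at 398, 229, 111, 229.8 and 283 CPM in the same libraries, with a highest value of 2.33 CPM outside them. Sox17, a factor associated with arterial endothelium, stood at 84.6, 99.0, 60.0, 101 and 97.7 CPM, and at 0.252 CPM at most elsewhere. Tumour 8 was the lowest endothelial library for all 3 genes, and no endothelial library overlapped another population. Erg ran from 23.9 to 63.9 CPM in endothelial cells and reached 3.01 CPM in CAF1 of tumour 11, its highest value elsewhere. Per kilobase of exon, the endothelial level was 209 ± 103 CPM per kb for Sox18, 75.8 ± 31.4 for Sox7, 18.5 ± 3.60 for Sox17 and 12.2 ± 4.21 for Erg.

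The comparison of lineages asks which factors part endothelial cells, fibroblasts (mean of CAF1 and CAF2) and macrophages (mean of the 3 subsets). In endothelial cells against fibroblasts, 16 of 34 tested members were higher and 14 lower, beside 45.2% of all genes called (23.0% higher, 22.1% lower). Against macrophages, 21 endothelial values were higher and 11 lower, beside 61.3% of all genes (36.5% higher, 24.7% lower). Fibroblasts were higher than macrophages for 18 members and lower for 13, beside 68.1% of all genes (37.3% higher, 30.8% lower). The median log2 difference of all genes was 0.04, 0.17 and 0.10 in these comparisons, and the median over the members was 0.69, 3.41 and 1.05. The members' median depends on how many come from each list. For endothelial, mesenchymal and macrophage factors it was 5.81, -2.65 and -1.13 in endothelial cells against fibroblasts. It was 7.30, 6.11 and -4.22 in endothelial cells against macrophages, and 0.85, 8.76 and -3.73 in fibroblasts against macrophages. These medians include members at or under 3 counts in every library of the lower lineage, whose log2 differences are limited by depth. All 10 endothelial factors were called higher in endothelial cells than in fibroblasts, and 12 of 12 tested mesenchymal factors were called higher in fibroblasts than in macrophages. Of 11 macrophage factors, 9 were called higher in macrophages than in fibroblasts and 10 higher than in endothelial cells. Without endothelial tumour 8, 35 members were tested, Tcf21 included. Those called were 30 against fibroblasts (15 higher, 15 lower) and 32 against macrophages (20 higher, 12 lower). Of all 13720 genes in that fit, 6235 were called against fibroblasts (2964 higher, 3271 lower) and 8025 against macrophages (4649 higher, 3376 lower).

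Sox18 was higher in endothelial cells than in fibroblasts by 7.76 ± 0.39 on the log2 scale (SE, adjusted p = 1.14e-15) and Sox7 by 8.06 ± 0.47 (adjusted p = 3.40e-13). Sox17 was at or under 3 counts in every fibroblast and macrophage library, so it has no fold there. Ets1, an ETS factor of endothelial and lymphoid cells, stood at 518, 464, 233, 472 and 497 CPM in endothelial cells, 69.6 ± 27.0 CPM in CAF1, 18.6 ± 7.70 CPM in CAF2 and 8.88 to 16.1 CPM in the means of the macrophage subsets. Its endothelial libraries lay above all others, CAF1 lay above CAF2, and both differences between lineages were called (log2 3.60 ± 0.26 against fibroblasts, adjusted p = 3.77e-12, and 5.18 ± 0.24 against macrophages, adjusted p = 2.29e-17). Elk3, an ETS factor of the ternary complex group, followed with 271 ± 89.6 CPM in endothelial cells, 47.4 to 69.5 CPM in the macrophage means and 37.3 ± 7.34 and 35.3 ± 4.95 CPM in CAF1 and CAF2. All endothelial libraries were above the rest for Elk3, while macrophages and fibroblasts overlapped, with the fibroblast mean called lower (log2 -0.71 ± 0.14, adjusted p = 3.32e-05).

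Fli1, Tal1 and Lyl1, which are used by both endothelial and blood cells, were shared between endothelial cells and macrophages. Fli1 stood at 94.9, 86.8, 45.4, 98.1 and 106 CPM in endothelial cells, 70.5 ± 16.6 in CD206hi, 68.2 ± 16.4 in CD206pos, 42.7 ± 5.29 in CD206neg, 5.94 ± 2.05 in CAF1 and 2.48 ± 0.528 CPM in CAF2. Endothelial and CD206hi libraries overlapped, as did CD206hi and CD206pos, and every fibroblast library lay below every other one. The endothelial excess over macrophages was 0.55 ± 0.18 on the log2 scale (adjusted p = 0.00854) and was not called without tumour 10 (adjusted p = 0.0830). Tal1, a basic helix-loop-helix factor of blood and endothelium, reached 8.77 ± 3.44 CPM in endothelial cells and 1.66 to 2.69 CPM in the macrophage means. Endothelial tumour 8 (3.41 CPM) overlapped macrophages for Tal1, and the difference was called (log2 2.06 ± 0.40, adjusted p = 4.59e-05). Lyl1, the close relative of Tal1, was highest in macrophages: 3.84, 7.21, 5.79, 5.32 and 4.81 CPM in CD206hi, 2.96 ± 0.902 in CD206neg, 4.28 ± 1.78 in CD206pos and 0.523 ± 0.418 CPM in endothelial cells. Every macrophage library was above every endothelial one for Lyl1, and the difference was called (log2 -2.95 ± 0.54, adjusted p = 3.32e-05). Lyl1 was at or under 3 counts in all fibroblast libraries. Macrophage markers summed to 147 to 494 CPM in endothelial libraries, against means of 59306 to 78910.3 CPM in the macrophage subsets.

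Nr2f2 (COUP-TFII), which marks venous endothelium and many mesenchymal cells, was split between endothelial cells and CAF1. It stood at 23.4, 26.9, 29.0, 23.4 and 28.5 CPM in endothelial cells and at 38.3, 23.8, 32.0, 17.1 and 12.8 CPM in CAF1. The 2 populations overlapped, CAF2 was lower at 6.60 ± 3.43 CPM, and every macrophage library was at or under 3 counts. Nr2f2 was called higher in endothelial cells than in the mean of both fibroblast groups (log2 1.03 ± 0.28, adjusted p = 0.00333).

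Twist1, Twist2, Prrx1, Prrx2 and Osr1, regulators of embryonic and connective tissue mesenchyme, were fibroblast factors in both subsets. Prrx1 stood at 95.8, 93.2, 102, 112 and 85.9 CPM in CAF1 and at 139, 119.6, 141, 95.4 and 165 CPM in CAF2. Endothelial libraries held 9.28, 0.295, 30.3, 1.34 and 2.63 CPM, with tumour 8 highest, and still lay below all fibroblast libraries. Prrx2 averaged 141 ± 55.8 CPM in CAF1, 159 ± 27.2 in CAF2 and 1.24 ± 1.87 in endothelial cells. Osr1 averaged 114 ± 68.6, 213 ± 60.6 and 2.44 ± 4.36 CPM, and Twist1 averaged 55.2 ± 14.9, 68.1 ± 9.13 and 3.28 ± 4.37 CPM. Twist2 averaged 27.9 ± 6.94, 22.7 ± 4.17 and 0.585 ± 0.993 CPM. For all 5 genes no fibroblast library overlapped another lineage. All 5 were called lower in endothelial cells than in fibroblasts, by log2 differences from -3.67 ± 0.58 for Prrx1 (adjusted p = 5.45e-06) to -6.79 ± 0.56 for Prrx2 (adjusted p = 4.02e-11).

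These differences moved with endothelial tumour 8, where fibroblast and pericyte markers were highest, and the part of those markers was not tested. Without that library the differences from fibroblasts were -5.06 for Prrx1, -8.52 for Prrx2, -8.33 for Osr1, -5.45 for Twist1 and -7.15 for Twist2, against -3.67, -6.79, -5.91, -4.16 and -5.25 with it. The low endothelial level of Prrx2 was called above macrophages with that library (log2 2.90 ± 0.59, adjusted p = 9.65e-05) and not without it (1.17, adjusted p = 0.0644). For Twist2, whose macrophage libraries were all at or under 3 counts, the same call was lost without the whole of tumour 8 (adjusted p = 0.0563).

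Ebf1 and Ebf2, early B-cell factors that also act in adipose and stromal progenitors, were highest in CAF2. Ebf2 stood at 81.9, 77.2, 70.5, 71.0 and 100.2 CPM in CAF2 and at 32.4, 29.8, 29.9, 26.9 and 21.1 CPM in CAF1. Ebf1 stood at 121, 103, 118, 152 and 169.9 CPM in CAF2, 76.3 ± 6.79 CPM in CAF1 and 34.5 ± 6.83 CPM in endothelial cells. CAF2, CAF1 and endothelial libraries did not overlap for either gene, and Ebf2 averaged 4.17 ± 4.86 CPM in endothelial cells. Both genes were at or under 3 counts in every macrophage library. Tcf21, a factor of visceral and adipose mesenchyme, had low levels: 1.77, 2.42, 4.79, 0.713 and 2.50 CPM in CAF2, 0.231 CPM in CAF1 on average, and 0 in all endothelial and macrophage libraries. It did not pass the filter on low counts with all libraries. With no filter it was called lower in CAF1 than in CAF2 (adjusted p = 0.0184), lower in endothelial cells than in fibroblasts (0.00158) and higher in fibroblasts than in macrophages (4.97e-05).

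Meox1, Meox2, Foxc2 and Foxf1 are listed as mesenchymal, and their highest lineage mean was endothelial. The Meox genes encode homeobox factors of paraxial mesoderm that are also expressed in vessels. Meox1 stood at 81.9, 119.7, 44.1, 109.5 and 98.4 CPM in endothelial cells, 23.8 ± 4.11 CPM in CAF1 and 18.5 ± 6.02 CPM in CAF2. Every endothelial library, tumour 8 included, was above every fibroblast library for Meox1 (log2 2.11 ± 0.28, adjusted p = 2.79e-07). Meox2 stood at 16.9, 16.2, 33.4, 17.3 and 17.3 CPM in endothelial cells, 10.6 ± 2.38 CPM in CAF1 and 14.8 ± 6.15 CPM in CAF2. These populations overlapped, and the call (log2 0.69 ± 0.27, adjusted p = 0.0398) was lost on leaving out 8 of the 15 libraries and each of the 5 tumours. The adjusted p was 0.247 without endothelial tumour 8, 0.0502 without endothelial tumour 11, 0.0556, 0.0617 and 0.0648 without CAF1 of tumours 6, 10 and 11, and 0.0620, 0.0630 and 0.0650 without CAF2 of tumours 5, 6 and 10. Without tumours 5, 6, 8, 10 or 11 it was 0.0851, 0.0573, 0.113, 0.109 or 0.0779.

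The forkhead factors were shared by endothelial cells and CAF1. Foxc2, a factor of lymphatic vessels and mesenchyme (chromosome 8, 121116171 to 121118895 in GRCm38), stood at 16.9, 14.6, 4.08, 9.97 and 7.45 CPM in endothelial cells and at 25.1, 26.1, 10.9, 3.96 and 4.96 CPM in CAF1. These populations overlapped, CAF2 did not exceed 1.07 CPM, and the single population with the highest mean was CAF1 at 14.2 ± 10.8 CPM. Foxf1, a mesenchymal and lung vascular factor, stood at 7.48 ± 3.75 CPM in endothelial cells, 4.20 ± 2.14 in CAF1 and 0.599 ± 0.594 in CAF2. Foxs1, a forkhead factor of the peripheral nervous system and of mural cells, had another order: 50.3, 49.1, 53.9, 42.7 and 27.5 CPM in CAF1, 7.94 ± 3.37 in CAF2, and 8.35, 0.196, 14.7, 0.949 and 1.95 CPM in endothelial cells. Every CAF1 library was above all others for Foxs1, while endothelial cells and CAF2 overlapped. Its endothelial value was called lower than the fibroblast mean (log2 -1.82 ± 0.58, adjusted p = 0.0114), and not without tumours 6, 10 or 11 (adjusted p 0.0627, 0.0669 and 0.0531). Without endothelial tumour 8 the difference was -2.71.

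**Figure D2:**
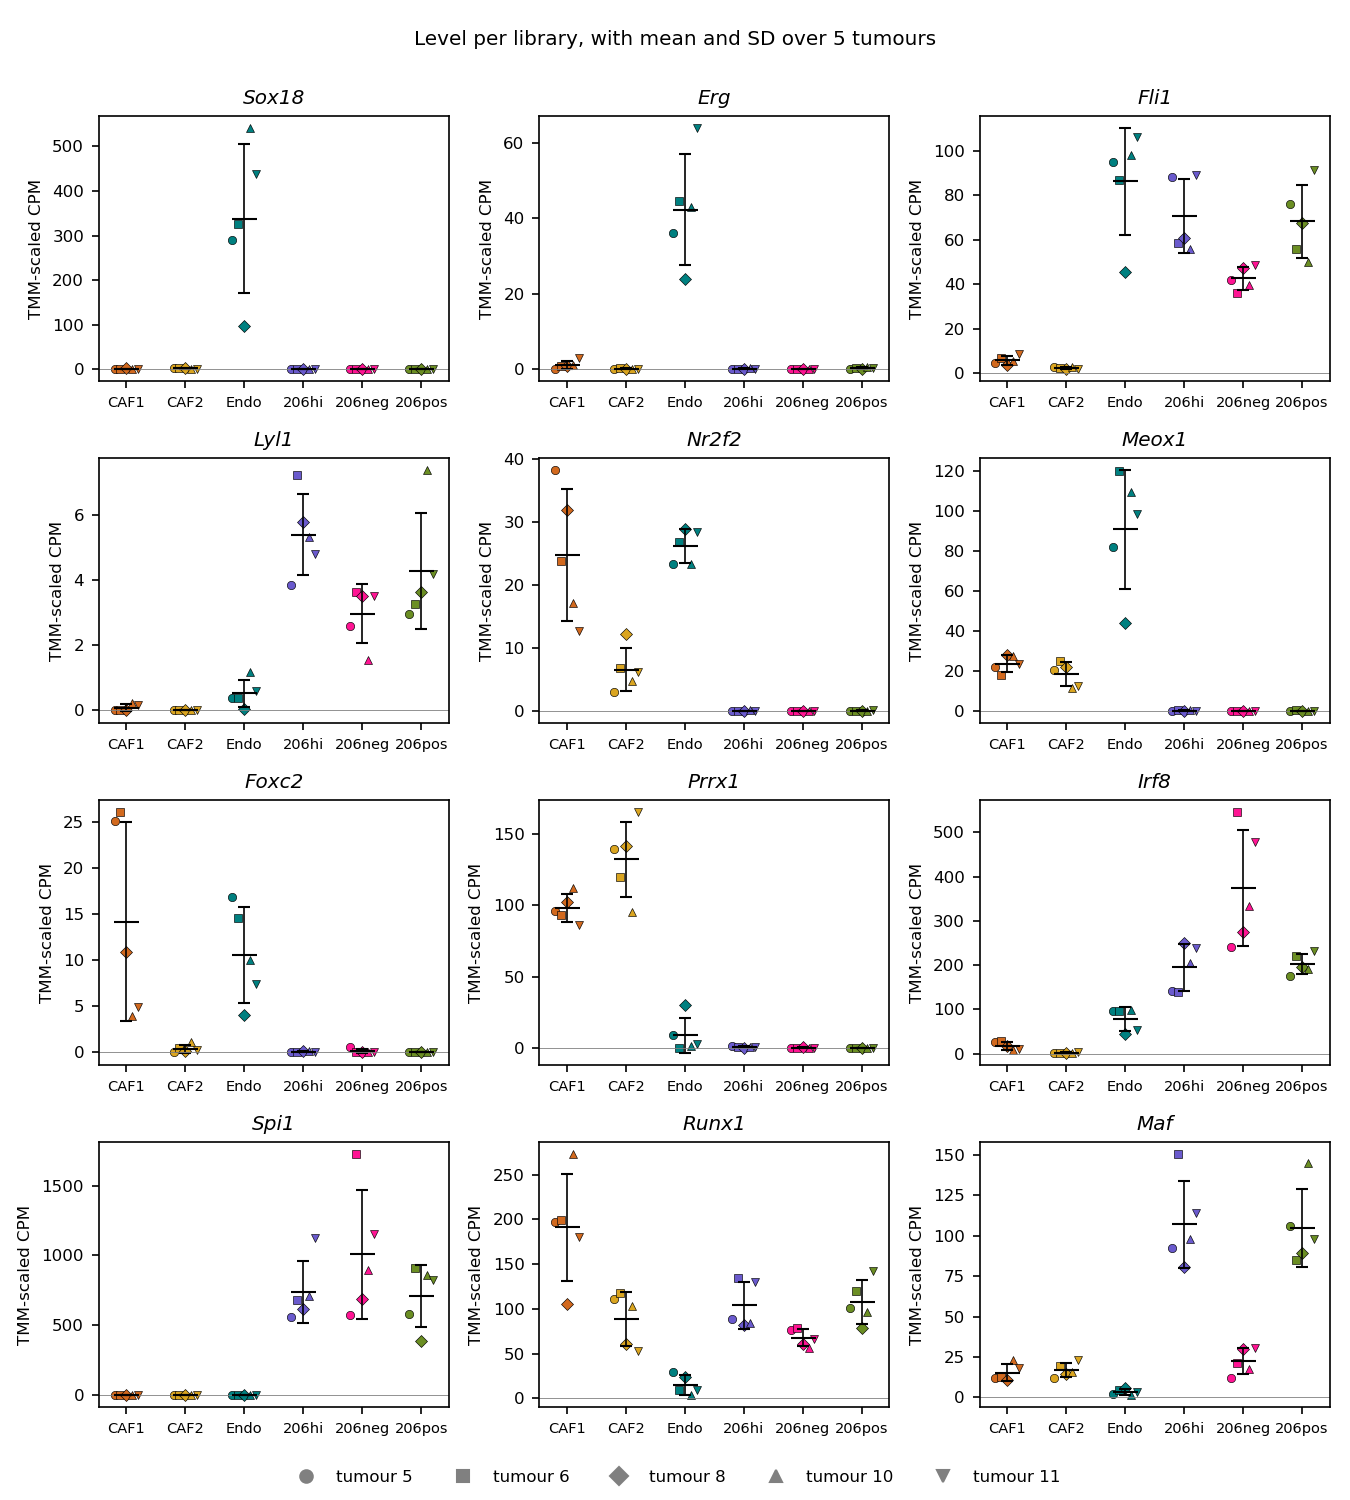
TMM-scaled CPM of 12 transcription factors in each library (points, shaped by tumour), with mean and SD over the 5 tumours of each population (horizontal and vertical bars). Sox18 and Erg are confined to the 5 endothelial libraries apart from low values of up to 3.01 CPM, Nr2f2 and Foxc2 are shared by CAF1 and endothelial cells, and Maf is lower in CD206neg than in the other macrophage subsets.

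Spi1, Irf5, Runx3, Tfec and Cebpa separated macrophages from both other lineages without overlap. Spi1, which encodes the myeloid master regulator PU.1, stood at 558, 682, 616, 709.5 and 1123 CPM in CD206hi, 571, 1725, 686, 898 and 1153 CPM in CD206neg and 585, 909.9, 386, 861 and 822 CPM in CD206pos. No fibroblast or endothelial library exceeded 2.36 CPM, and the macrophage subsets overlapped one another. Irf5, an interferon regulatory factor of inflammatory signalling, averaged 149.5 ± 29.7, 268 ± 65.9 and 158 ± 27.2 CPM in CD206hi, CD206neg and CD206pos and 0.465 ± 0.261 to 4.25 ± 1.71 CPM elsewhere. Tfec, a relative of Mitf found in the macrophage lineage, averaged 24.5 ± 10.5, 5.96 ± 1.88 and 19.8 ± 7.96 CPM in these subsets and was at or under 3 counts in every fibroblast library. Runx3 averaged 23.5 ± 11.5 CPM in CD206hi and 63.5 ± 8.25 CPM in CD206neg and ran from 15.2 to 89.3 CPM in CD206pos. Cebpa, a C/EBP factor of myeloid progenitors, averaged 39.5 ± 15.8, 57.1 ± 33.3 and 34.8 ± 11.2 CPM in the 3 subsets. Per kilobase of exon, CD206hi held 274 ± 82.8 CPM per kb of Spi1, 51.5 ± 10.2 of Irf5, 4.70 ± 2.30 of Runx3 and 4.37 ± 1.88 of Tfec.

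Irf8, Maf, Cebpb, Batf3, Runx1 and Nr1h3 were present in several lineages. Irf8, a partner of PU.1 in monocytes and dendritic cells, averaged 77.6 ± 26.9 CPM in endothelial cells and 17.8 ± 8.82 CPM in CAF1, against means of 195 ± 52.8 (CD206hi), 203 ± 22.6 (CD206pos) and 375 ± 131 CPM (CD206neg). Its endothelial libraries held 96.0, 97.2, 43.8, 98.2 and 52.9 CPM, all below the macrophage libraries and above all fibroblast libraries, and both differences were called (log2 -1.66 ± 0.28, adjusted p = 7.72e-06, and 3.69 ± 0.27, adjusted p = 3.94e-12). In the same endothelial libraries Spi1 averaged 0.932 ± 0.313 CPM. Cebpb, a C/EBP factor induced by inflammation, was the most abundant member in fibroblasts and macrophages per kilobase of exon. It averaged 1954 ± 1133 CPM per kb in CD206hi, 796 ± 253 in CAF1, 431 ± 118 in CAF2 and 148 ± 85.5 in endothelial cells.

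Runx1, a RUNX factor needed for blood formation, stood at 197, 199, 106, 273 and 180.3 CPM in CAF1, 108 ± 24.5 in CD206pos, 104 ± 26.0 in CD206hi, 89.1 ± 30.2 in CAF2, 67.8 ± 9.72 in CD206neg and 15.2 ± 11.1 CPM in endothelial cells. Each of the first 5 populations overlapped the next in this order, and endothelial cells lay below all of them. The fibroblast excess over macrophages (log2 0.52 ± 0.22, adjusted p = 0.0424) was lost on leaving out 17 of 25 libraries, without tumours 5, 6 or 10 (0.0785, 0.120 and 0.163), and without CD206neg of tumours 6 and 8 (0.0876). The libraries concerned were CAF1 of tumours 5, 6, 10 and 11 (0.0564, 0.0583, 0.0980 and 0.0501), CAF2 of tumours 5, 6 and 10 (0.0769, 0.0863 and 0.0691), CD206hi of tumours 5, 8 and 10 (0.0583, 0.0612 and 0.0608), CD206neg of tumours 6, 8, 10 and 11 (0.0649, 0.0570, 0.0605 and 0.0529) and CD206pos of tumours 5, 8 and 10 (0.0535, 0.0632 and 0.0562). Nr1h3, the sterol sensor LXR-alpha, ranged from 7.64 ± 5.12 CPM in endothelial cells to 22.0 ± 3.77 CPM in CAF1. Each pair of neighbouring populations in that order overlapped.

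Etv1, an ETS factor of the PEA3 group (chromosome 12, 38780082 to 38870483 in GRCm38), followed subsets rather than lineages. It stood at 46.6, 39.3, 42.1, 30.3 and 61.0 CPM in CD206hi, 73.0, 23.7, 25.1, 21.3 and 40.3 CPM in CD206pos and 5.52, 4.11, 4.70, 3.49 and 7.86 CPM in CD206neg. Fibroblasts held 24.3, 26.9, 57.4, 19.6 and 23.4 CPM in CAF1 and 12.3 ± 4.01 CPM in CAF2, and endothelial cells held 11.7, 14.7, 44.3, 6.41 and 15.9 CPM. CD206neg lay below every CD206hi, CD206pos, CAF1 and CAF2 library and overlapped endothelial cells. None of the 3 comparisons of lineages called Etv1 (adjusted p 0.923, 0.788 and 0.846). Without endothelial tumour 8 it was called lower in endothelial cells than in macrophages (log2 -0.74, adjusted p = 0.0408), and without the whole of tumour 8 likewise (-0.79, adjusted p = 0.0281).

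Promoter windows of 300 bases, from 250 before to 50 after a RefSeq transcription start in GRCm38.p6, were held for 22 of the 35 members (31 windows). The motifs searched on both strands, which may overlap one another, were ETS CCGGAAG, PU.1 GAGGAAGT, SOX AACAAT, E-box CAGCTG, RUNX TGTGGT, C/EBP TTGCGCAA and EBF CCCNNGGG. Of all 32851 windows, 8.86%, 3.20%, 10.7%, 16.3%, 16.8%, 0.183% and 13.7% held a match, and of the members' 31 windows 1, 1, 3, 0, 6, 0 and 8. The windows of Lyl1, Tfec, Runx3 and Etv1 are shown because these members differ between macrophages and other cells or among macrophage subsets, and because they hold an ETS match (Lyl1) or a RUNX match (the others). They were chosen after the search. Each runs 5′ to 3′ on the strand of the gene, and capitals mark the match, which reads CTTCCGG or ACCACA where the motif lies on the other strand. A match describes these letters and shows no binding.
Lyl1 (chr8:84701207-84701506, plus strand): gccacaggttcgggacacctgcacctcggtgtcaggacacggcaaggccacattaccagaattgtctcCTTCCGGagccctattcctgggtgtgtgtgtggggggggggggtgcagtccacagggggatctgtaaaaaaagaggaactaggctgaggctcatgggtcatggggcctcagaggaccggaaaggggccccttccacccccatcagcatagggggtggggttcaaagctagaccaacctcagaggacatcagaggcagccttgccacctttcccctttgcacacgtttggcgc
Tfec (chr6:16898392-16898691, minus strand): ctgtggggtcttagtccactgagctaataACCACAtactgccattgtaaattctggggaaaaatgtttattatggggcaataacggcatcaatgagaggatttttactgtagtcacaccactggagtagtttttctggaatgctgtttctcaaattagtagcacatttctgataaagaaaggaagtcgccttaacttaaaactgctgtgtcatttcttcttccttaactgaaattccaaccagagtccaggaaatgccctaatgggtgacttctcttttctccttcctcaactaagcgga
Runx3 (chr4:135120395-135120694, plus strand): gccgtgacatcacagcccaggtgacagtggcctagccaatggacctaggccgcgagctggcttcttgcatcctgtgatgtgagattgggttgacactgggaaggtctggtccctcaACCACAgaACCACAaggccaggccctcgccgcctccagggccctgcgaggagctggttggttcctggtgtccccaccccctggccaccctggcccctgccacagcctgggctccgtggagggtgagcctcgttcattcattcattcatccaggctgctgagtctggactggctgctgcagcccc
Etv1 (chr12:38779832-38780131, plus strand): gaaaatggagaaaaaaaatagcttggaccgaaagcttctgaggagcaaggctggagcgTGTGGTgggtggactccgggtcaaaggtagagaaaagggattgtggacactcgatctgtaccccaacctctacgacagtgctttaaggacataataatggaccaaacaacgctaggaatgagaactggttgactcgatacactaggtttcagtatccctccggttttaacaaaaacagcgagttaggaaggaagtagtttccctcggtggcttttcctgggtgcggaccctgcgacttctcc

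Setting CD34- against CD34+ fibroblasts asks which factors part the subsets of one gate. Of 26 members tested, 12 were higher and 2 lower in CAF1, beside 19.5% of all 12149 genes called (10.9% higher, 8.59% lower). The median log2 difference was 0.84 over the members tested and 0.01 over all genes. Erg, Sox7, Sox17, Tal1, Lyl1, Tcf21, Spi1, Runx3 and Tfec did not pass the filter on low counts. By list, 3 of 5 tested endothelial factors, 3 of 12 mesenchymal factors, 5 of 8 macrophage factors and Etv1 were higher in CAF1. The 2 lower ones were mesenchymal.

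The forkhead genes had the largest rises among mesenchymal factors. Foxc2 was higher in CAF1 by 5.17 ± 0.79 on the log2 scale (adjusted p = 5.97e-04), Foxs1 by 2.51 ± 0.30 (adjusted p = 1.13e-04) and Foxf1 by 2.84 ± 0.72 (adjusted p = 0.0142). No CAF1 library overlapped CAF2 for any of these. The size for Foxc2 moved to 6.15 without CAF2 of tumour 10, to 6.40 without tumour 10 and to 4.53 without tumour 5, and that for Foxf1 to 3.46 without CAF2 of tumour 5. Foxf1 was not called without tumour 8 (adjusted p = 0.0533). Ebf2 (log2 -1.50 ± 0.15, adjusted p = 4.65e-05) and Ebf1 (-0.78 ± 0.16, adjusted p = 0.00362) were lower in CAF1, again with no overlap.

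Twist1, Twist2, Prrx1, Prrx2 and Osr1 were not called between the subsets, unlike Ebf1 and Ebf2. The log2 difference was -0.29 ± 0.19 for Twist1, 0.31 ± 0.20 for Twist2, -0.42 ± 0.16 for Prrx1 and -0.16 ± 0.27 for Prrx2 (adjusted p 0.316, 0.321, 0.0939 and 0.747), with overlap for all 4. Prrx1 was called lower in CAF1 without CAF2 of tumour 10 (adjusted p = 0.0401) or without tumour 10 (0.0374). Osr1 was lower in CAF1 in 5 of 5 tumours with overlapping groups (log2 -0.89 ± 0.39, adjusted p = 0.140), and was called with tumour as a block (adjusted p = 0.0164).

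Among endothelial factors, Ets1 (log2 1.92 ± 0.32, adjusted p = 9.91e-04), Nr2f2 (1.93 ± 0.38, adjusted p = 0.00310) and Fli1 (2.40-fold, adjusted p = 0.0140) were higher in CAF1, without overlap. Fli1 was not called without tumour 6 (adjusted p = 0.0703) or tumour 11 (0.0925). The sum of 6 endothelial markers was 75.2 ± 33.8 CPM in CAF1 and 75.3 ± 21.5 CPM in CAF2, but its members differed. Esam averaged 55.6 ± 27.4 CPM in CAF1 and 0.318 ± 0.275 CPM in CAF2, and Emcn averaged 13.5 ± 10.8 and 0.113 ± 0.126 CPM. Tek had the opposite order, with 5.12 ± 3.83 and 70.0 ± 21.4 CPM, and for these 3 markers the groups did not overlap. Pecam1 averaged 0.218 and 1.47 CPM, Kdr 0.588 and 3.40 CPM, and Cdh5 0.212 and 0.0304 CPM. The part of endothelial cells in the CAF1 values was not tested.

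Among macrophage factors, Irf8 had the largest rise: 25.9, 27.8, 16.3, 8.24 and 10.6 CPM in CAF1 against 1.93, 2.30, 2.27, 0.785 and 2.87 CPM in CAF2. The groups did not overlap (log2 3.16 ± 0.41, adjusted p = 2.17e-04). Runx1 (1.11 ± 0.28, adjusted p = 0.0134), Nr1h3 (0.78 ± 0.19, adjusted p = 0.0123), Cebpb (0.90 ± 0.29, adjusted p = 0.0430) and Batf3 (2.22 ± 0.65, adjusted p = 0.0303) were higher in 5 of 5 tumours, with overlap of the groups for the first 3. Nr1h3 was not called without tumour 6 (0.0529) or tumour 10 (0.0597). Cebpb was not called in a fit of all 30 libraries (adjusted p = 0.168) or without any of 8 of the 10 libraries, namely CAF1 of tumours 6, 8, 10 and 11 (0.0947, 0.0573, 0.0549 and 0.0788) and CAF2 of tumours 5, 8, 10 and 11 (0.0886, 0.0978, 0.107 and 0.0682), nor without tumours 6, 8, 10 or 11 (0.0698, 0.125, 0.127 and 0.107). Batf3 was not called with tumour as a block (adjusted p = 0.0662), without CAF1 of tumours 5, 6 and 8 (0.0633, 0.0605 and 0.0720) or CAF2 of tumours 8, 10 and 11 (0.0519, 0.0751 and 0.0571), or without tumours 6, 8, 10 or 11 (0.0569, 0.0969, 0.0867 and 0.0669). Irf5 missed the threshold (1.17 ± 0.41, adjusted p = 0.0659), as did Cebpa (0.93 ± 0.35, adjusted p = 0.0785). Irf5 passed it without CAF1 of tumour 8 (0.0342) or CAF2 of tumour 10 (0.0447), by DESeq2 (0.0286) and in a fit of all libraries (0.00852). Cebpa passed it by DESeq2 (0.0358). Etv1 was higher in CAF1 by 1.32 ± 0.31 (adjusted p = 0.0100), with CAF1 of tumour 8 the highest library at 57.4 CPM.

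Markers of other cells moved with CAF1. All 6 pericyte markers were analysed, and their sum was 502 to 1562 CPM in CAF1 and 81.7 to 110.2 CPM in CAF2. The sum of 6 luminal epithelial markers was 194 to 1576 CPM in CAF1 and 1.29 to 433 CPM in CAF2, and that of 4 myoepithelial markers 82.1 to 2756 CPM and 0.0713 to 9.33 CPM. Macrophage markers summed to 66.1 to 196 CPM in CAF1 and 18.8 to 72.2 CPM in CAF2, with Ptprc (CD45) at 0.386 and 0.298 CPM and Adgre1 (F4/80) at 0.344 and 0.253 CPM. The part of pericytes, epithelial cells and macrophages in the CAF1 values was not tested.

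**Figure D3:**
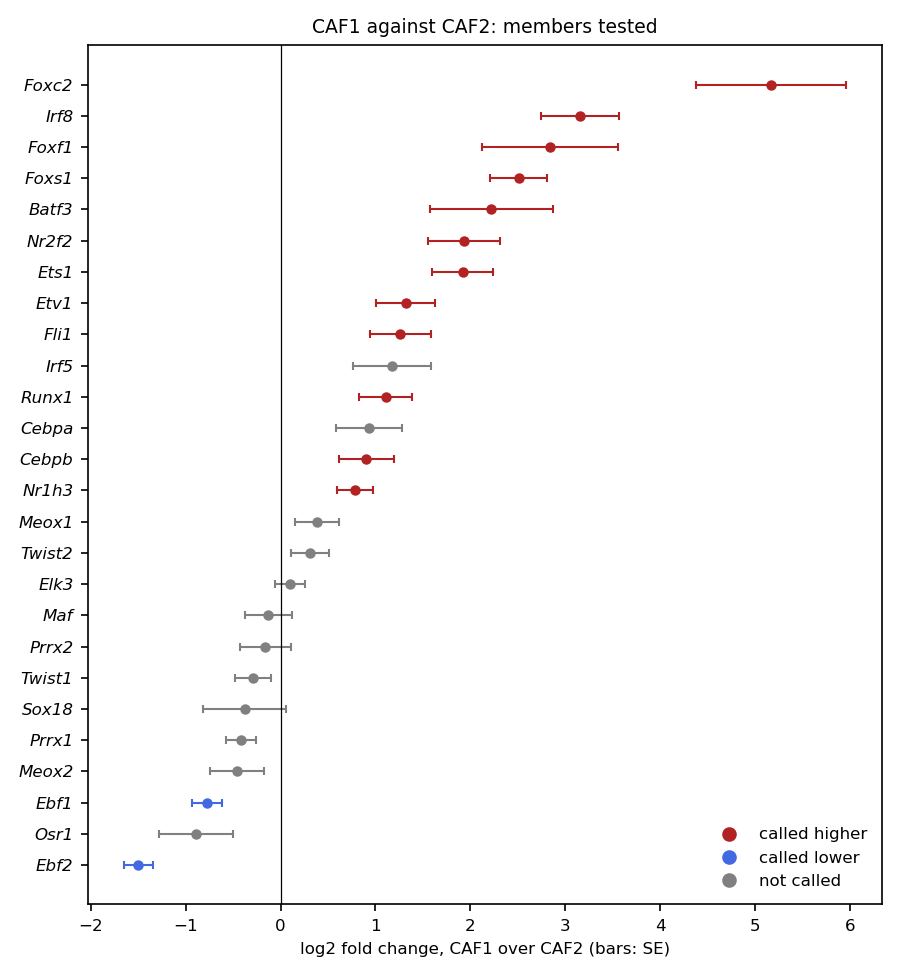
Log2 fold change of CAF1 over CAF2 for the 26 transcription factors tested (points) with SE (bars), n = 5 tumours per group, coloured by call in edgeR's quasi-likelihood test. The forkhead genes Foxc2, Foxf1 and Foxs1 and Irf8 lie at 2.51 or more, Ebf1 and Ebf2 below 0, and the Twist and Prrx genes near 0.

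Lists of other factors of the same lineages, members excluded, were counted the same way. Of 50 tested genes, 20 were higher and 5 lower in CAF1, beside 19.5% of all genes called (10.9% higher, 8.59% lower). Epas1 (HIF-2 alpha, log2 3.25 ± 0.25), Tbx3 (2.81 ± 0.31) and Mef2c (1.01 ± 0.20) were higher among 12 endothelial factors tested, of which 7 were higher and none lower. With tumour as a block, 4 of these were higher and 1 lower. Among 21 mesenchymal factors 6 were higher and 5 lower. Tbx2 (3.76 ± 0.32) and the Notch target Heyl (2.50 ± 0.32) were higher, and Tshz2 (-1.55 ± 0.23) and Zeb1 (-0.83 ± 0.18) lower. Of 17 macrophage factors 7 were higher, including the AP-1 factor Batf (4.68 ± 0.75), from 0.473 ± 0.712 CPM in CAF2 to 10.9 ± 3.27 CPM in CAF1.

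The macrophage comparisons ask which factors differ with CD206 and MHC class II. All 3 subsets come from 1 fit, so that CD206hi and CD206pos are each set against the same CD206neg libraries. Of 17 members tested, 5 were higher and 3 lower in CD206hi than in CD206neg, beside 10% of all 11052 genes called (6.14% higher, 3.90% lower). In CD206pos, 6 were higher and 2 lower than in CD206neg, beside 14.7% of all genes called (8.85% higher, 5.85% lower). Without CD206neg of tumours 6 and 8, 4 members were called in each comparison, beside 545 and 930 of all 11471 genes. The median log2 difference was 0.45 and 0.56 over the members and 0.02 over all genes in both. None of the 13 mesenchymal factors, and neither Erg, Nr2f2 nor the SOX F genes, passed the filter on low counts in macrophages.

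Maf, Tfec and Etv1 were lower in CD206neg than in either CD206+ subset. Maf, a factor of resident and self-renewing macrophages (chromosome 8, 115703253 to 115706894 in GRCm38), stood at 12.2, 21.3, 29.9, 17.4 and 30.8 CPM in CD206neg, 92.4, 150.5, 80.4, 98 and 114 CPM in CD206hi and 106, 84.8, 89.2, 145 and 98.1 CPM in CD206pos. CD206neg did not overlap the other 2 subsets, which overlapped each other. The log2 difference was 2.27 ± 0.27 for CD206hi (adjusted p = 3.95e-05) and 2.24 ± 0.27 for CD206pos (adjusted p = 4.44e-05). Etv1 differed by 3.10 ± 0.33 (adjusted p = 2.38e-05) and 2.84 ± 0.33 (adjusted p = 4.44e-05). Tfec stood at 8.36, 3.15, 5.76, 6.55 and 6.0 CPM in CD206neg and differed by 2.01 ± 0.33 (adjusted p = 5.66e-04) and 1.70 ± 0.33 (adjusted p = 0.00188), again without overlap. These 3 genes were still called without CD206neg of tumours 6 and 8, at 2.40 and 2.36 for Maf, 2.95 and 2.69 for Etv1, and 1.76 and 1.45 for Tfec (largest adjusted p 0.0260).

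Irf5 and Irf8, both interferon regulatory factors, had the opposite direction. Irf5 stood at 232, 343, 186, 255 and 326 CPM in CD206neg against 157, 99.6, 149, 167 and 175 CPM in CD206hi and 170.3, 123, 142, 162 and 194 CPM in CD206pos. It was lower in CD206hi (log2 -0.84 ± 0.21, adjusted p = 0.0122) and in CD206pos (-0.76 ± 0.21, adjusted p = 0.0186), in 5 of 5 tumours each, with no overlap for CD206hi and an overlap with CD206pos of tumour 11. Without CD206neg of tumours 6 and 8 both calls stood (adjusted p 0.0312 and 0.0371). Irf5 was not called in CD206hi without tumours 6 or 11 (0.0821 and 0.0658), nor in CD206pos without tumours 6, 10 or 11 (0.0772, 0.0717 and 0.0668) or in a fit of all 30 libraries (0.0523).

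Irf8 stood at 242, 546, 276, 334 and 478 CPM in CD206neg, and was lower in CD206hi (log2 -0.95 ± 0.24, adjusted p = 0.0159) and in CD206pos (-0.88 ± 0.24, adjusted p = 0.0192). Tumours 6 and 11 held its highest CD206neg values, CD206hi of tumour 8 overlapped CD206neg, and CD206pos did not. Both calls were lost without CD206neg of tumours 6 and 8 (log2 -0.88 and -0.83, adjusted p 0.0698 and 0.0649) and in a fit of all 30 libraries (0.0538 and 0.0535). Without CD206neg of tumour 6 alone the adjusted p was 0.0526 and 0.0547, and without CD206neg of tumour 11 it was 0.0504 for CD206pos. Without tumours 6, 10 or 11 it was 0.140, 0.0558 and 0.0801 for CD206hi and 0.0694, 0.0783 and 0.0869 for CD206pos.

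Fli1, the RUNX genes, Elk3 and Nr1h3 gave differences whose calls changed with single libraries. Fli1 was higher in CD206hi by 0.72 ± 0.19 (adjusted p = 0.0194) and in CD206pos by 0.67 ± 0.19 (adjusted p = 0.0241), with no overlap with CD206neg. Neither call stood without CD206neg of tumours 6 and 8 (0.119 and 0.113). For CD206hi the call was also lost without CD206hi of tumours 5 and 11 (0.0719 and 0.0731), CD206neg of tumours 5, 6 and 10 (0.0535, 0.0702 and 0.0598), or tumours 5, 6 and 11 (0.122, 0.0602 and 0.0956). For CD206pos it was lost without CD206pos of tumours 5 and 11 (0.0535 and 0.0796), CD206neg of tumours 5, 6 and 10 (0.0560, 0.0719 and 0.0675), or tumours 5, 6, 10 and 11 (0.0844, 0.0571, 0.0546 and 0.108).

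Runx3, a RUNX factor of lymphoid and myeloid cells, stood at 50.4, 72.8, 62.9, 67.2 and 64.1 CPM in CD206neg and 25.0, 18.5, 30.9, 36.4 and 6.78 CPM in CD206hi, without overlap (log2 -1.41 ± 0.44, adjusted p = 0.0474). The call was kept without CD206hi of tumours 8 or 10 and without tumour 10. It was lost without CD206hi of tumours 5, 6 and 11 (0.0800, 0.108 and 0.0980), CD206neg of tumours 5, 6, 8, 10 and 11 (0.0548, 0.0912, 0.0726, 0.0901 and 0.0767), CD206neg of tumours 6 and 8 together (0.162), or tumours 5, 6, 8 and 11 (0.0696, 0.198, 0.0875 and 0.123). In CD206pos Runx3 stood at 15.2, 35.9, 31.6, 89.3 and 17.7 CPM, with tumour 10 above every CD206neg library. The difference from CD206neg was not called (-0.72 ± 0.43, adjusted p = 0.282), and was called with tumour as a block (0.0293) or without CD206pos of tumour 10 (0.0240).

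Runx1 was higher in CD206pos than in CD206neg by 0.67 ± 0.20 (adjusted p = 0.0301), and in CD206hi by 0.62 ± 0.20 (adjusted p = 0.0525), without a call. The latter was called with tumour as a block (0.00766), by DESeq2 (0.0320), with a filter of at least 50 counts in 5 libraries (0.0482) and without CD206hi of tumour 8 (0.0470). The CD206pos call was lost without CD206pos of tumours 6 and 11 (0.0700 and 0.0962), CD206neg of tumours 8, 10 and 11 (0.0712, 0.0940 and 0.0758), both CD206neg of tumours 6 and 8 (0.107), tumours 5, 6, 10 or 11 (0.0587, 0.0535, 0.115 and 0.180), or in a fit of all libraries (0.220). Elk3 was higher in CD206hi by 0.56 ± 0.17 (adjusted p = 0.0477), a call that stood without CD206neg of tumour 5 and without tumour 5. It was lost on leaving out any other library, namely CD206hi of tumours 5, 6, 8, 10 and 11 (0.169, 0.0731, 0.0604, 0.0842 and 0.0908) and CD206neg of tumours 6, 8, 10 and 11 (0.131, 0.148, 0.150 and 0.132), or tumours 6, 8, 10 and 11 (0.135, 0.118, 0.178 and 0.216). It was also lost with RLE factors (0.0581), with no filter (0.0916), without CD206neg of tumours 6 and 8 (0.338) and in a fit of all libraries (0.101). In CD206pos Elk3 passed only with tumour as a block (0.0160 against 0.107). Nr1h3 was higher in CD206pos by 0.67 ± 0.21 (adjusted p = 0.0416), and the call was lost without CD206neg of tumours 5, 6, 8, 10 and 11 (0.0886, 0.0810, 0.119, 0.0538 and 0.0789), CD206pos of tumours 6, 10 and 11 (0.0770, 0.0997 and 0.0708), each tumour (0.0952 to 0.121), both CD206neg of tumours 6 and 8 (0.217), with no filter (0.0777) and in a fit of all libraries (0.106). Ets1 was lower in CD206pos with tumour as a block (0.0443 against 0.0880), without CD206pos of tumour 8 (0.0439) and without tumour 8 (0.0420).

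Between CD206hi and CD206pos, none of the 17 members tested was called, by edgeR, beside 0.190% of all genes (0.00905% higher, 0.181% lower). These were 21 genes, with 801 at an unadjusted p under 0.05, and 83 called by DESeq2. The MHC class II gene H2-Aa, whose protein class parts these subsets in the sort, was not called by edgeR either. It averaged 74.1 ± 58.9 CPM in CD206hi and 5002 ± 3809 CPM in CD206pos, without overlap (log2 -6.08 ± 1.34, adjusted p = 0.0821). With tumour as a block H2-Aa was called (0.00316). A missing call here therefore does not show equal levels. No member test by DESeq2 other than that of Batf3 passed. Batf3, an AP-1 factor of cross-presenting dendritic cells, had the largest difference among the members. It stood at 1.92, 4.12, 3.22, 5.66 and 3.06 CPM in CD206hi and 5.11, 29.1, 4.31, 35.1 and 17.7 CPM in CD206pos, lower in CD206hi in 5 of 5 tumours. CD206pos of tumours 5 and 8 overlapped CD206hi, and the other 3 stood at 17.7 CPM or more. The log2 difference was -2.34 ± 0.52 (adjusted p = 0.0821), and it was called with tumour as a block (0.0186), by DESeq2 (0.00107), in a fit of all libraries (0.0403), and without CD206pos of tumour 5 (0.0201) or tumour 8 (0.0169). CD206neg held 7.24 ± 2.70 CPM, and CD206pos was above it by 1.34 ± 0.49 (adjusted p = 0.0757; 1.72 and 0.0942 without CD206neg of tumours 6 and 8), called by DESeq2 (0.0392), without CD206pos of tumours 5 or 8 (0.0307 and 0.0185) and without tumour 8 (0.0315). Of 6 dendritic cell markers 4 were analysed here, and their sum was 195, 159, 26.7, 116 and 349 CPM in CD206pos, 6.69 to 446 CPM in CD206hi and 15.6 to 36.3 CPM in CD206neg. Cd209a made up most of the sum in the CD206+ subsets, with means of 161 ± 115 CPM in CD206pos, 143 ± 175 in CD206hi and 0.539 ± 0.644 in CD206neg. Ccr7 had another order, with 4.82 ± 4.08, 1.49 ± 1.27 and 17.5 ± 5.96 CPM. Clec9a was at 0 in every CD206pos and CD206neg library, and Xcr1 averaged 3.42 to 4.17 CPM in the subsets. The part of dendritic cells in these values was not tested.

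The other 16 members differed between CD206hi and CD206pos by -0.69 to 0.44 on the log2 scale. The values were 0.03 ± 0.25 for Maf, 0.26 ± 0.30 for Etv1, 0.31 ± 0.31 for Tfec and 0.05 ± 0.31 for Spi1. Spi1, Cebpa and Cebpb, the general myeloid factors, were not called in any of the 3 comparisons of macrophage subsets. Luminal epithelial markers summed to 924 CPM in CD206neg of tumour 6 and 28.9 CPM in CD206neg of tumour 8, and their part was not tested.

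**Figure D4:**
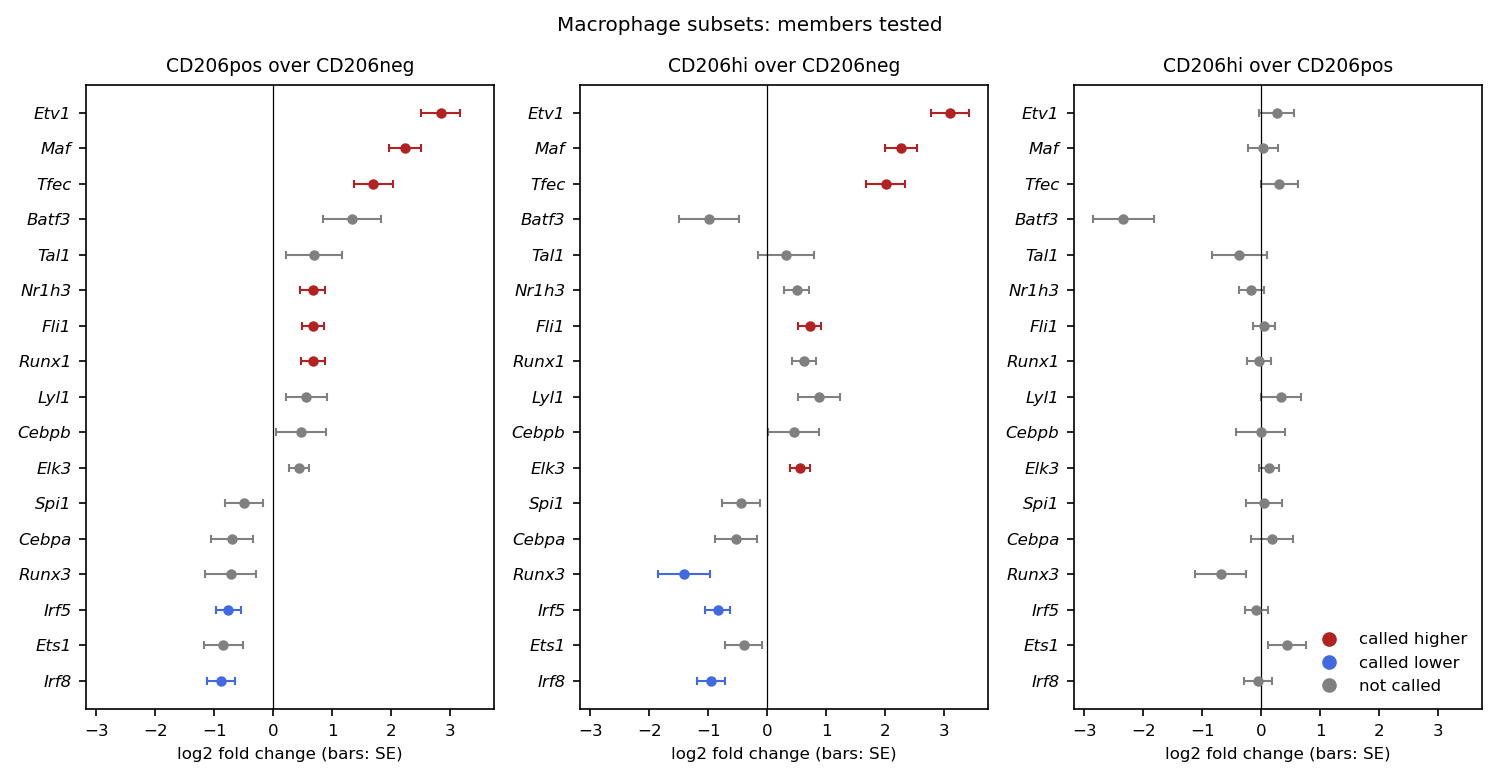
Log2 fold change with SE of the 17 transcription factors tested in each of 3 comparisons of macrophage subsets (n = 5 tumours per group), coloured by call in edgeR's quasi-likelihood test. Etv1, Maf and Tfec lie at 1.70 or more in both comparisons with CD206neg and between 0.03 and 0.31 in CD206hi against CD206pos, where Batf3 is lowest at -2.34.

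Of the other factors, 37 were tested in macrophages, of which 8 were higher and 0 lower in CD206hi and 8 were higher and 1 lower in CD206pos, each against CD206neg. Klf4, a zinc finger factor of monocytes and endothelium, rose from 15.3 ± 5.92 CPM in CD206neg to 105 ± 55.9 in CD206hi (log2 2.80 ± 0.47, adjusted p = 7.11e-04) and 105 ± 51.3 CPM in CD206pos (2.80 ± 0.47, adjusted p = 6.53e-04). Foxp1, Tcf4 and Zeb2, listed as mesenchymal and used in many cell types, were higher in both: Foxp1 by 1.43 ± 0.25 and 1.72 ± 0.25, Tcf4 by 1.16 ± 0.19 and 0.98 ± 0.19, and Zeb2 by 0.76 ± 0.22 and 1.01 ± 0.22. Without CD206neg of tumours 6 and 8, 38 other factors were tested by edgeR. In CD206hi 5 were higher and 0 lower, beside 334 and 211 of all 11471 genes. In CD206pos 8 were higher and 0 lower, beside 555 and 375 of all genes. Klf4, Foxp1, Tcf4, Irf4 and Cebpd were then still called in both. Zeb2 was called in CD206pos (adjusted p = 0.0212) and not in CD206hi (0.80, adjusted p = 0.0904). Egr2 and Rxra, called higher in CD206hi with all libraries, were then not called (adjusted p 0.212 and 0.211). Bhlhe41, called lower in CD206pos with all libraries, was not called either (0.0764). Irf4, an interferon regulatory factor of alternative activation and of dendritic cells, was at 1.83 ± 0.801 CPM in CD206neg, 9.71 ± 6.37 CPM in CD206hi (2.37 ± 0.51, adjusted p = 0.00521) and 26.7 ± 9.94 CPM in CD206pos (3.84 ± 0.52, adjusted p = 1.12e-04). None of the 37 was called between CD206hi and CD206pos by edgeR without a block, and Irf4 was lower in CD206hi with tumour as a block (log2 -1.65, adjusted p = 0.0303, against -1.47 ± 0.46 and 0.375 without it). The CD206hi values of Irf4 were chosen for mention after they were seen. Foxd1, Hand2 and Six2 were not analysed here.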

How the data were processed

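RNA was measured by bulk RNA-seq in 30 libraries, 5 tumours for each of 6 sorted populations, grouped by GEO's labels. The deposited values used are raw read counts per gene, made by the authors with Trimmomatic 0.36, HISAT2 2.0.4 and SAMtools 1.3.1 on mm10, per the submitters' processing notes. The sources used here do not name the counting tool, its annotation or its strand setting. The matrix holds 14118 genes, 14104 with a symbol, and its smallest gene total is 72 counts. The authors' normalised table was not used. The members and the lists were chosen with earlier results of these data known.

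Counts were filtered by filterByExpr, scaled by TMM and tested with the quasi-likelihood F test of edgeR 4.0.16 in R 4.3.3, with Benjamini-Hochberg adjustment over all genes tested and a threshold of 0.05. Fibroblast subsets were fitted on 10 libraries, macrophage subsets on 15 and lineages on all 30, without a term for the tumour. A lineage of several populations was the mean of their log2 levels, and the SE is the log2 difference divided by the square root of F. All members were named, and of the other factors up to 3 called genes per list, comparison and direction, those with the largest change whose higher group averaged 10 CPM or more. The code was tested on simulated counts with known changes, for CAF1 against CAF2, CD206hi against CD206neg and endothelial cells against fibroblasts. There edgeR found 31 to 46% of 2-fold and 80 to 86% of 4-fold changes, and 3.82 to 4.88% of its calls were false. DESeq2 found 51 to 55% and 86 to 93%, and 10.3 to 15.5% of its calls were false. A 2-fold change can thus be missed by edgeR, and calls by DESeq2 alone were less certain in the simulated counts. There libraries were independent, few genes were changed, and the spread came from edgeR's own estimates. The shares of false calls need not hold for these data. Libraries of the same number come from the same animal, per the labels. Their deviations from the group means correlated at 0.0205 to 0.381 in fibroblasts, 0.111 to 0.648 in macrophages and 0.0213 to 0.574 over all libraries. The medians were 0.14, 0.294 and 0.162, against -0.0377, -0.112 and -0.043 for libraries of different tumours and populations. The main fits treated libraries of a tumour as independent, and member calls that change with a tumour block are named above. Alternatives were a tumour block, RLE factors, no filter, a stricter filter, DESeq2 1.42.0, a fit of all libraries, and leaving out libraries or tumours. CPM per kilobase use the exon length of GENCODE vM21. The 4 promoter windows were chosen because they hold a motif match. Sox17 in fibroblasts against macrophages was left out after its values were seen, because both sides are at or under 3 counts.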

Additional observations from a re-analysis of the deposited data

Results flagged for a closer look

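In 12 of 92 groups of 5 libraries with a mean of at least 10 CPM, the highest or lowest library stood apart from the rest, its gap to the nearest one exceeding 0.71 of the group's range. The minimum of 10 CPM was set after values were seen. For independent and normally distributed values, chance gives about 1 in 20 such groups. CPM were used here without a log, and the same libraries recur across genes. The 12 of 92 groups therefore cannot be weighed against that rate.

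In endothelial cells, tumour 8 was the library set apart for 3 genes. Ets1 was at 233 CPM there and at 464 CPM in the nearest library, Meox2 at 33.4 against 17.3 CPM, and Etv1 at 44.3 against 15.9 CPM. In CAF1, Etv1 was at 57.4 CPM in tumour 8 (nearest 26.9 CPM) and Nr1h3 at 15.4 CPM in tumour 11 (nearest 22.7 CPM). In CAF2, Ets1 was at 31.9 CPM in tumour 6 (nearest 17.6 CPM).

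In CD206hi, tumour 11 was set apart for Spi1 (1123 CPM, nearest 709.5 CPM), Cebpb (5892 CPM, nearest 2799.8 CPM) and Ets1 (4.59 CPM, nearest 13.3 CPM), and tumour 5 for Elk3 (89.4 CPM, nearest 66.7 CPM). In CD206pos, tumour 10 was set apart for Runx3 (89.3 CPM, nearest 35.9 CPM) and Nr1h3 (20 CPM, nearest 16.1 CPM).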

How the results depend on the processing

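Of 178 member results, 123 were called. With tumour as a replicate block 122 of these calls were kept, 1 was lost and 6 were added; with RLE factors 122 were kept, with no filter 121, and with DESeq2 123, with 5 added. In simulated data DESeq2 had a larger share of false calls than edgeR. With at least 50 counts in 5 libraries 116 of 116 were kept. A fit of all 30 libraries kept 23 of 30 and added 2, and leaving out CD206neg of tumours 6 and 8 kept 69 of 79. The causes were not tested. Depth limits genes at or under 3 counts, for which no single fold is given, though the medians over the members include them.

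In CD206hi against CD206neg, 1110 genes were called, 1791 with the replicate block. Without CD206neg of tumours 6 and 8 it was 4 members and 545 genes, without tumour 6 it was 3 and 652, and without tumour 11 it was 3 and 535. Leaving out 1 library gave 4 to 8 members and 747 to 1164 genes. In CD206pos against CD206neg, 1625 genes were called, 2800 with the block. Members called numbered 4 in the fit of all libraries, where 1967 of 13610 genes were called, against 1625 of 11052 in the main fit. They numbered 4 (930 genes) without CD206neg of tumours 6 and 8. Without tumours 5, 6, 10 and 11 they numbered 5, 3, 3 and 3 (1074, 1064, 765 and 818 genes). Leaving out 1 library gave 5 to 10 members and 1109 to 2070 genes. In CD206hi against CD206pos, 0 members and 21 genes were called by edgeR, 1 and 97 with the block, 1 and 83 by DESeq2, and 1 and 36 in the fit of all libraries. Leaving out 1 library gave 0 to 1 members and 5 to 48 genes. Without tumours 6, 10 and 11 edgeR called 0 genes, with 723, 437 and 609 at an unadjusted p under 0.05. Over all libraries or tumours left out, members called numbered 10 to 15 in CAF1 against CAF2 (1663 to 2390 of all genes). They numbered 28 to 31 in endothelial cells against fibroblasts (4674 to 6250 genes) and 31 to 32 against macrophages (7367 to 8485 genes). In fibroblasts against macrophages they numbered 29 to 32 (8573 to 9441 genes). Tcf21 was counted where it passed the filter. The fit of all libraries gave 1451 higher and 782 lower genes in CAF1, against 1327 and 1043.

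Signs turned only among results that were not called with all libraries. With a tumour left out in every group, the log2 difference in CD206hi against CD206pos was -0.02 for Fli1 (tumour 5), -0.05 and -0.09 for Spi1 (8, 11), -0.20 and -0.01 for Maf (6, 11), 0.07 for Irf8 (6) and 0.03, 0.11 and 0.10 for Cebpb (5, 6, 10; 0.00 with the block). It was -0.08 for Elk3 in CAF1 against CAF2 (5), -0.14 for Tal1 in CD206hi against CD206neg (10) and 0.24 for Runx3 in endothelial cells against fibroblasts (10). For Etv1 it was 0.04, 0.09 and 0.04 in endothelial cells against fibroblasts (6, 10, 11), 0.16 and 0.02 against macrophages (5, 11), and 0.23 in fibroblasts against macrophages (5). With each library left out in turn, differences that turned at least once in CD206hi against CD206pos ran from -0.06 to 0.15 for Fli1, -0.13 to 0.15 for Spi1, -0.14 to 0.18 for Maf, -0.16 to 0.03 for Irf5, -0.17 to 0.03 for Irf8, -0.01 to 0.33 for Cebpa, -0.40 to 0.15 for Cebpb and -0.17 to 0.06 for Runx1. In CAF1 against CAF2 they ran from -0.01 to 0.19 for Elk3, -0.31 to 0.02 for Prrx2 and -0.33 to 0.02 for Maf. In endothelial cells against fibroblasts they ran from -0.52 to 0.01 for Runx3 and -0.69 to 0.17 for Etv1. Against macrophages Etv1 ran from -0.74 to 0.11 in endothelial cells and -0.25 to 0.07 in fibroblasts.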
